A study of Mus musculus with 24 samples.

Results

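The GABA-B receptor system was followed in mouse cortex through 8 genes: the receptor subunits Gabbr1 and Gabbr2, the G protein-gated inward rectifier potassium (GIRK) channel subunits Kcnj3, Kcnj6 and Kcnj9, and the auxiliary subunits Kctd8, Kctd12 and Kctd16. They were picked by name out of the 36096 genes summed from the deposited mRNA table, and all 8 were among the 15786 genes tested. The members were chosen on results of the same contrast between genotypes, so for them that contrast is a description: counts past its threshold are printed beside those over all genes, and no p-value is given or read. RNA came from the medial frontal cortex of C57BL/6J mice on postnatal day 28. The controls carried Emx1-cre alone, a Cre driver that recombines in the dorsal forebrain lineage that gives cortical excitatory neurons and glia. Dnmt3l;Emx1-cre mice, called Dnmt3l here, carried Emx1-cre together with a conditional knock-in of Dnmt3l, a cofactor of the DNA methyltransferases Dnmt3a and Dnmt3b. No group lacked Cre. Each of the 4 groups of genotype and sex held 3 libraries depleted of ribosomal RNA: CM1 to CM3 (control males), CF1 to CF3 (control females), DM1 to DM3 (Dnmt3l males) and DF1 to DF3 (Dnmt3l females). The labels do not say whether each sample was a separate animal, so a p-value here reflects only how these samples vary, and that variation can be technical.

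GABA-B receptors are the metabotropic receptors for GABA, the main inhibitory transmitter of the cortex. A Gabbr1 subunit binds the transmitter and a Gabbr2 subunit couples to G proteins of the Gi/o class, so a working receptor needs both. Released βγ subunits open GIRK channels in dendrites, which hyperpolarizes the neuron. They also inhibit calcium channels in nerve terminals, which lowers transmitter release, while the α subunit inhibits some adenylyl cyclases. The Kctd proteins bind the tail of Gabbr2 and set how fast the potassium current starts and how much it desensitizes.

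The sequence upstream of 4 members is shown because Dnmt3l acts with enzymes that methylate CpG sites, and these are the receptor subunits and the Kctd genes that lay apart between genotypes. No methylation was measured in these libraries. Windows of 250 bases before each annotated start came from RefSeq (GRCm38.p6), with 8 windows used for 7 members and none used for Kctd16. They are written 5′ to 3′ on the gene's strand, with CG dinucleotides in capitals. The Gabbr1 window lay at chr17:37045716-37045965 on the plus strand, and the Kctd8 and Kctd12 windows lay on the minus strand at chr5:69341710-69341959 and chr14:102982638-102982887. The Gabbr2 sequence, also on the minus strand, was shortened to the 91 bases at chr4:46991874-46991964 that lie outside the gene in the deposited table.
Gabbr1: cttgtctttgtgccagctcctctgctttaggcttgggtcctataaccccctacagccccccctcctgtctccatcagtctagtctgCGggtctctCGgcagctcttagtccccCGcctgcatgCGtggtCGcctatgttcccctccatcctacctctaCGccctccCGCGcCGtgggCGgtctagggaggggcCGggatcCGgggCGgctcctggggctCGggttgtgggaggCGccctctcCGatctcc
Gabbr2: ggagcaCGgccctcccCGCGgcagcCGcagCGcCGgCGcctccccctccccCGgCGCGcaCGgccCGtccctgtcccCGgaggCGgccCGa
Kctd8: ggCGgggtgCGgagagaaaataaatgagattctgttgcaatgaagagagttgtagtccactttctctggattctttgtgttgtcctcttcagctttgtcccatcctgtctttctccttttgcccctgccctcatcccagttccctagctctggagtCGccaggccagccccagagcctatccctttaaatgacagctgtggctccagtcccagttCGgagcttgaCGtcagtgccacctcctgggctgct
Kctd12: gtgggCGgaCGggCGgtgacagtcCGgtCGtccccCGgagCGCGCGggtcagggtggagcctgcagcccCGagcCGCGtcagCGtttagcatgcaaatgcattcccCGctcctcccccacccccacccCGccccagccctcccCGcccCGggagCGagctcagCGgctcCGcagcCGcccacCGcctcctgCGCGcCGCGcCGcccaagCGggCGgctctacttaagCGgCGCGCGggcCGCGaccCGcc

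Windows rich in CG belonged to Gabbr2, which was higher, to Kctd12, which was lower, and to Kcnj6 (outer window), whose genotypes overlapped. Any link between CG content and direction was not tested. Over the full 250 bases the Gabbr2 window held 37 CG dinucleotides, more than 97.8% of the 32817 RefSeq windows of that length held. The Kctd12 window held 36, more than 97.4% of windows held, and Kctd12 was lower where Gabbr2 was higher, in Dnmt3l libraries. Gabbr1 held 16, and Kctd8 held 5, just under the median of 6 over all windows. Of the channel genes, Kcnj3 held 7 and Kcnj9 held 5, while the outer Kcnj6 window held 26 and its inner window 7. The palindrome TGACGTCA, the letters of the cAMP response element, was found in the Kctd8 window and in 1.55% of all windows. GGGCGG, read on both strands, was in the windows of Gabbr1, Gabbr2 and Kctd12, in the inner Kcnj6 window and in 32.72% of all windows. A match of letters is a description and not a bound site.

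Library size and cell makeup are given before the values of the members. Controls had 27074837 to 32100277 expected counts a library, and Dnmt3l libraries had 22144970 to 26842726. The targeted gene had 0 to 3 expected counts in each control and 521 to 1179 in each Dnmt3l library. DF1 held the most Dnmt3l counts but stood apart from the other Dnmt3l libraries: its summed astrocyte markers (8 genes) were at 6834 CPM (expected counts scaled to library size), against 6099 to 6672 in controls and at least 10670 in the rest of its genotype. Its 9 endothelial and pericyte markers summed to 330.5 CPM, against 297.4 to 325.8 in controls and a highest Dnmt3l sum of 623 CPM. By the genotype test described below, 7 of the 8 astrocyte markers rose and 1 fell, and 7 of 8 microglial markers rose. All 9 endothelial and pericyte markers rose, as did 4 of 6 oligodendrocyte precursor markers. Of 8 oligodendrocyte markers 5 rose and 1 fell, and 4 of 5 red blood cell markers fell. Excitatory neuron markers (12 genes) summed to 2041 to 2393 CPM in controls and 2082 to 2634 CPM in Dnmt3l, with 1 risen and 5 fallen. The control libraries CM3, CF1 and CF2 held liver transcripts, with 72.5, 89.5 and 96.3 CPM over 8 liver markers, a list without Ttr and Trf that was set after the values were seen. The other controls held 0.262 to 0.519 CPM of these. No marker gene of these cell types was at 0 in all libraries. The share of counts from mitochondrial genes separated the genotypes: controls had 2.63% to 3.59%, DF1 had 3.73% and the rest of its genotype had 5.57% to 7.30%. Striatal markers (6 genes, 1 fallen) summed to 327 to 557 CPM in controls, to 156 and 112 CPM in DF1 and DF2, and to 312 to 528 CPM in the rest of that genotype. The part of cell makeup, RNA quality and dissection in the results was not tested, and in bulk RNA fewer cells of a type and less RNA per cell cannot be told apart.

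Levels per transcript length were compared between members in controls, as FPKM (fragments scaled by transcript length and library size) summed over a gene's transcripts. Gabbr1 was the most abundant at 261 ± 9.37 FPKM (SD, n = 6). Kctd16 (80.8 ± 5.37) and Gabbr2 (75.5 ± 2.38) came next, and their control ranges overlapped. Below them stood Kcnj6 at 46.9 ± 2.49 FPKM, then Kcnj9 (36.8 ± 2.62) and Kcnj3 (36.7 ± 1.53), whose ranges also overlapped. Kctd12 was at 14.8 ± 0.800 FPKM and Kctd8 at 2.33 ± 0.289 FPKM. Any other neighbours in this order did not overlap. In the Dnmt3l libraries Gabbr2, at a mean of 106 FPKM, came before Kctd16, at 71.8 FPKM, and the rest of the order of means was the same as in controls. A sum over transcripts depends on how the authors' model split reads between long and short transcripts.

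**Figure D1:**
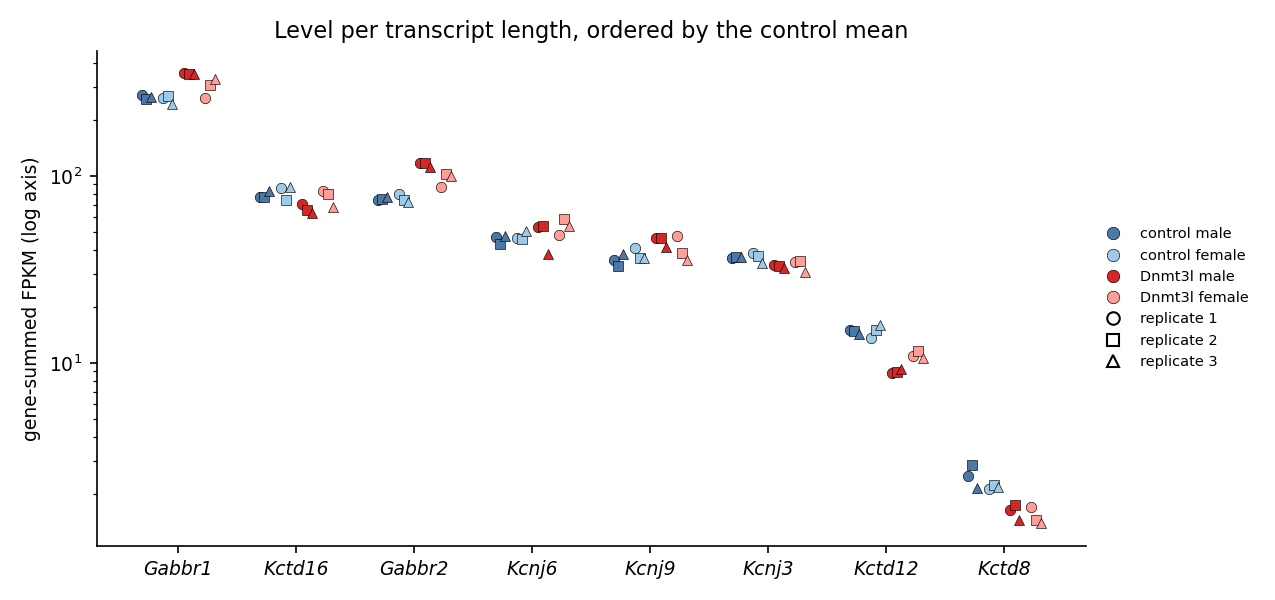
FPKM of each member in the 12 libraries (vertical log axis), ordered by the control mean; each point is a library, with colour for group and shape for replicate number. Gabbr1 lies highest, Gabbr2 and Kctd16 overlap in controls, and Kctd8 lies lowest.

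Between genotypes the members did not move as a block. Both receptor subunits and Kcnj9 were higher in Dnmt3l libraries, and Kctd8 and Kctd12 were lower. Kcnj3, Kcnj6 and Kctd16 had smaller log2 changes, that of Kcnj6 (0.21) being nearest to that of Kcnj9 (0.30). By edgeR's quasi-likelihood test, averaged over sexes, 5 of the 8 members passed a Benjamini-Hochberg adjusted p of 0.05, 3 higher and 2 lower. Over all genes tested 51.5% passed, 25.2% higher and 26.4% lower. Because the choice of members used this contrast, nothing is read from their count. For 1 member, Gabbr2, the lowest Dnmt3l library exceeded the highest control, which held for 5.47% of all genes. For 2, Kctd8 and Kctd12, the highest Dnmt3l library was under the lowest control, which held for 6.83% of all genes. Without DF1 all 8 members passed the threshold, as did 63.1% of all genes. The median log2 change over all genes was 0.02. Of all genes called 48.9% were higher, 35.4% when libraries were scaled by their totals alone and 55.0% with upper-quartile scaling.

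**Figure D2:**
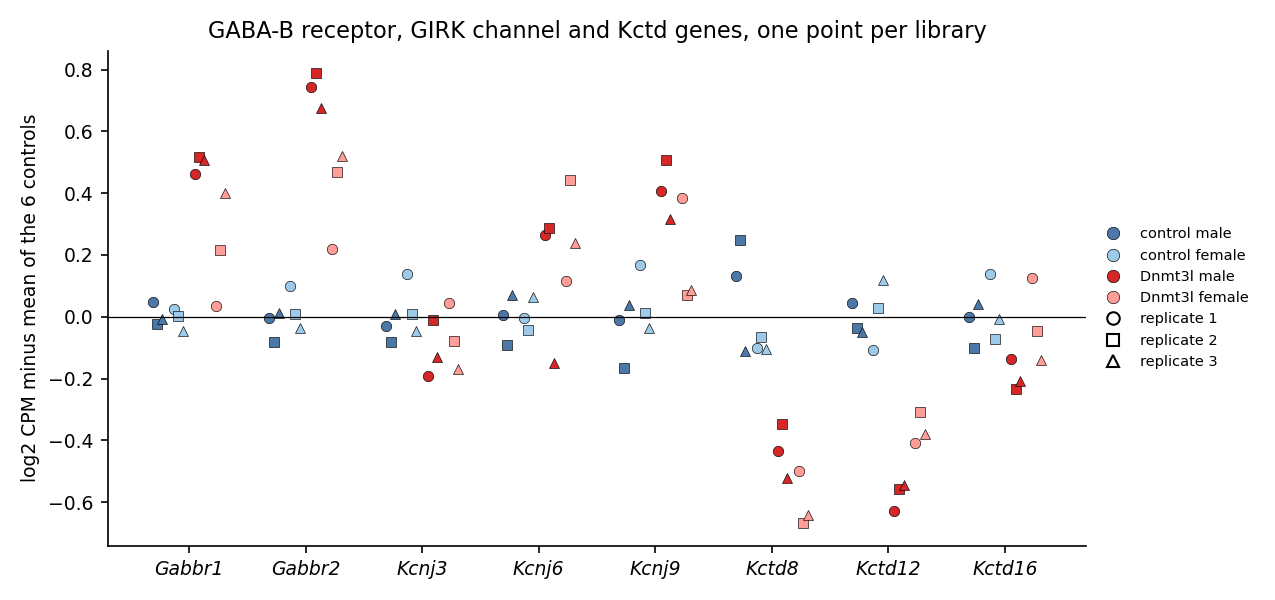
Log2 CPM of each member minus the mean of the 6 controls (vertical axis); each point is a library, with colour for group and shape for replicate number. All Dnmt3l points lie above the controls for Gabbr2 and below them for Kctd8 and Kctd12, and DF1 lies within the control range for Gabbr1.

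Gabbr1 encodes the subunit that binds GABA (ENSMUSG00000024462, GRCm38 chr17:37045966-37075067, plus strand). It stood at 828, 788.2 and 796.1 CPM in the control males, 814.3, 801.1 and 775.1 CPM in the control females, 1103, 1146 and 1138 CPM in the Dnmt3l males, and 819.8, 929.6 and 1057 CPM in the Dnmt3l females. The highest control was CM1, and 5 of the 6 Dnmt3l libraries lay above it, with DF1 inside the control range. Group means were 804 ± 21.1 and 797 ± 19.9 CPM (SD, n = 3) in control males and females, and 1129 ± 23.0 and 936 ± 119 CPM in Dnmt3l males and females. Averaged over sexes, Gabbr1 had a log2 change of 0.36 ± 0.06 (SE).

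Gabbr2 encodes the partner subunit that carries the signal to the G protein (ENSMUSG00000039809, chr4:46662305-46991873, minus strand). Its values were 393.1, 372.3 and 397.3 CPM in control males, 422.2, 396.3 and 384.1 CPM in control females, 659, 680.4 and 629.8 CPM in Dnmt3l males, and 458.4, 545.5 and 564.5 CPM in Dnmt3l females. The genotypes did not overlap, and DF1 was the Dnmt3l library nearest to the controls. The log2 change was 0.57 ± 0.06. The difference was thus larger for Gabbr2 than for Gabbr1 in the same libraries, with 3.29 to 3.63 FPKM of Gabbr1 per FPKM of Gabbr2 in controls and 2.98 to 3.31 in Dnmt3l. These ratios overlapped, since DF3 lay inside the control range, while the other 5 Dnmt3l libraries lay below it.

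The GIRK channel subunits differed among themselves. Kcnj3 encodes GIRK1, the subunit that pairs with others in most neuronal GIRK channels (ENSMUSG00000026824, chr2:55435970-55598145, plus strand). It held 146.7, 141.6 and 150.7 CPM in control males, 164.9, 150.8 and 145 CPM in control females, 131.2, 148.7 and 136.9 CPM in Dnmt3l males, and 154.6, 141.7 and 133.3 CPM in Dnmt3l females. The genotypes overlapped, with a log2 change of -0.09 ± 0.06. Kcnj9 encodes GIRK3, a subunit also known for its part in channel trafficking (ENSMUSG00000038026, chr1:172320501-172329318, minus strand). It stood at 106.7, 95.99 and 110.5 CPM in control males, 120.8, 108.5 and 104.8 CPM in control females, 142.7, 152.9 and 133.9 CPM in Dnmt3l males, and 140.3, 113 and 114.3 CPM in Dnmt3l females. The 3 Dnmt3l males and DF1 lay above all controls, and DF2 and DF3 lay among them. The log2 change was 0.30 ± 0.07.

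Kcnj6 encodes GIRK2, which can form channels by itself (ENSMUSG00000043301, chr16:94748636-94997701, minus strand). It stood at 104.8, 97.79 and 109.4 CPM in control males, 103.9, 101.3 and 109.1 CPM in control females, 125.3, 127.4 and 93.91 CPM in Dnmt3l males, and 113.2, 141.6 and 123.2 CPM in Dnmt3l females. Of the Dnmt3l libraries 5 lay above the highest control, and DM3 lay below the lowest one. The log2 change was 0.21 ± 0.08. Set against Kcnj3 in the same library, Kcnj9 had 67.8 to 73.4 counts per 100 Kcnj3 counts in controls and 79.8 to 109 in Dnmt3l, with no overlap, as for 4.8% of all genes set against Kcnj3. The same ratio for Kcnj6 was 63.0 to 75.2 in controls and 68.6 to 99.9 in Dnmt3l, and overlapped. These ratios do not depend on how libraries are scaled.

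The Kctd genes went from no overlap between genotypes to overlap with a smaller log2 change. Kctd12 encodes the auxiliary subunit known to make GABA-B currents desensitize (ENSMUSG00000098557, chr14:102976581-102982637, minus strand). It held 86.16, 81.52 and 80.74 CPM in control males, 77.51, 85.12 and 90.63 CPM in control females, 54.07, 56.76 and 57.31 CPM in Dnmt3l males, and 62.98, 67.5 and 64.26 CPM in Dnmt3l females. Every Dnmt3l library, DF1 included, lay below every control, and the log2 change was -0.47 ± 0.06. Kctd8, which binds the receptor with little desensitization (ENSMUSG00000037653, chr5:69109285-69341679, minus strand), was the least abundant member. It stood at 6.37, 6.908 and 5.381 CPM in control males, 5.422, 5.551 and 5.403 CPM in control females, 4.297, 4.565 and 4.045 CPM in Dnmt3l males, and 4.116, 3.657 and 3.722 CPM in Dnmt3l females. All Dnmt3l libraries were lower than all controls, with 81 to 111 expected counts in a Dnmt3l library and 153 to 211 in a control. The log2 change was -0.52 ± 0.11, the widest error among the members.

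Kctd16, the third of the Kctd members that bind the receptor, differed less (ENSMUSG00000051401). It stood at 122.4, 114.2 and 126 CPM in control males, 134.6, 116.4 and 121.9 CPM in control females, 111.3, 104 and 105.9 CPM in Dnmt3l males, and 133.4, 118.5 and 111.1 CPM in Dnmt3l females. Of the Dnmt3l libraries 4 lay below the lowest control and DF1 lay near the top of the control range. The log2 change was -0.11 ± 0.07.

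Relative to Gabbr2, whose tail the Kctd proteins bind, the counts of all 3 Kctd genes were lower in each Dnmt3l library than in each control. So were those of 35.9% of all genes tested. Gabbr2, the denominator, was itself higher in every Dnmt3l library in CPM, although its unscaled counts overlapped between genotypes. Nothing particular to the Kctd genes is read from these ratios. Kctd12 had 18.4 to 23.6 expected counts per 100 Gabbr2 counts in controls and 8.21 to 13.7 in Dnmt3l, with means of 21.3 ± 1.77 and 10.5 ± 2.31 (SD, n = 6). For Kctd8 the range was 1.28 to 1.86 in controls and 0.642 to 0.898 in Dnmt3l. Kctd16 had 29.4 to 31.9 counts per 100 Gabbr2 counts in controls and 15.3 to 29.1 in Dnmt3l, where the highest value was that of DF1. The Kcnj3 ratios did not overlap either, with 37.3 to 39.1 in controls and 19.9 to 33.7 in Dnmt3l. Kcnj6 (24.6 to 28.4 and 14.9 to 26.0) and Kcnj9 (25.8 to 28.6 and 20.2 to 30.6) overlapped between genotypes. The Gabbr2 counts in these ratios were part of the contrast that chose the members, so the ratios add no test.

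**Figure D3:**
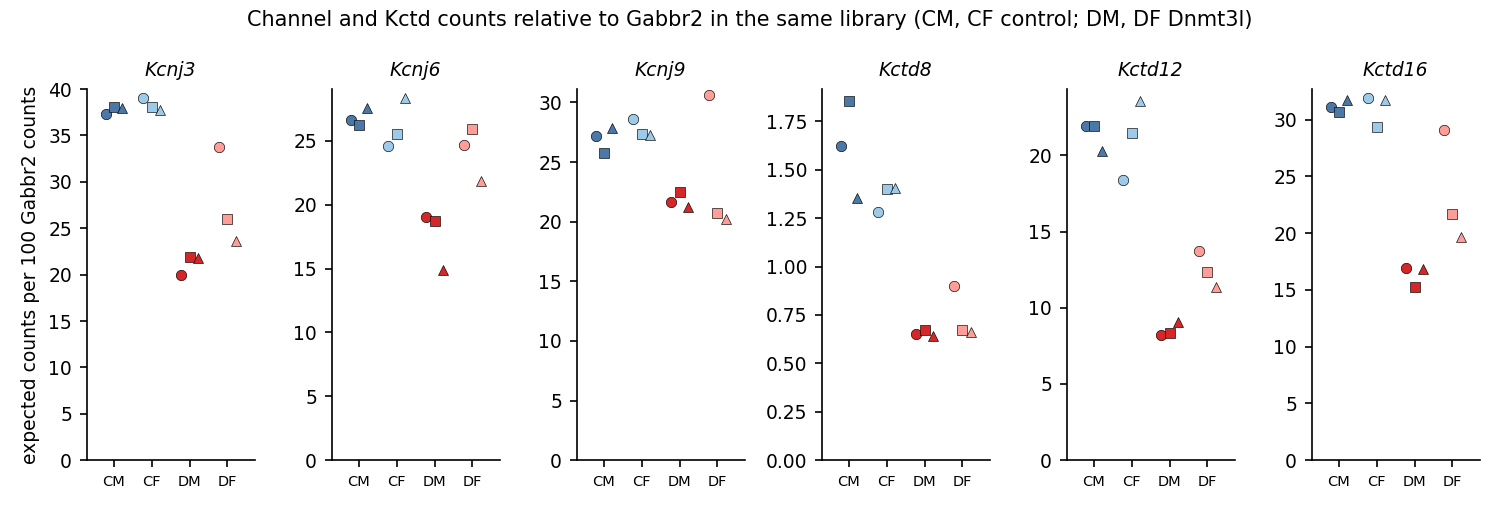
Expected counts of each channel and Kctd gene per 100 Gabbr2 counts in the same library (vertical axes from 0, one scale per panel), by group; circles, squares and triangles are replicates 1, 2 and 3. Control and Dnmt3l points do not overlap for Kcnj3, Kctd8, Kctd12 and Kctd16, and the circle of DF1 is the Dnmt3l point nearest the controls in those panels.

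The table held 42 transcripts of the 8 genes, of which 18 carried at least 5% of their gene's expected counts. Most genes were dominated by 1 transcript in both genotypes. ENSMUST00000107749 held 98.9% of Gabbr2 counts, ENSMUST00000184744 nearly all of Kctd12, ENSMUST00000054095 96.0% of Kctd8 and ENSMUST00000062387 88.9% of Kcnj9. Gabbr1 is known for transcripts with different starts that encode receptor forms placed differently in axons and dendrites. Its 4036-base transcript ENSMUST00000172792 held 79.4% to 81.8% of the gene's counts in controls and 80.6% to 83.0% in Dnmt3l, and the 5248-base ENSMUST00000025338 held 9.78% to 13.2% and 9.81% to 12.02%. The shares of both overlapped between genotypes. Which receptor form each encodes was not analysed here.

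Of the 18 transcripts, 1 of Kcnj3 had a share that did not overlap between genotypes, and was lower in Dnmt3l. Among all 36126 transcripts with at least 5% of a tested gene's counts, the share was lower without overlap for 1.62% and higher for 1.96%. The gene's main transcript, ENSMUST00000067101 (5215 bases), held 86.1% of counts over all libraries, and its level overlapped between genotypes at 119 to 143 CPM in controls and 107 to 143 CPM in Dnmt3l. The 4068-base ENSMUST00000112632 was at 16.1, 10.9 and 12.2 CPM in control males, 13.0, 14.6 and 13.3 CPM in control females, 8.21, 9.59 and 4.91 CPM in Dnmt3l males, and 5.17, 2.02 and 4.19 CPM in Dnmt3l females. All 6 Dnmt3l libraries, DF1 included, lay below all 6 controls, and the ratio of the mean levels was 0.425. It made up 7.73% to 10.98% of Kcnj3 counts in controls and 1.43% to 6.45% in Dnmt3l. In CPM the main transcripts of Gabbr2, Kctd8 and Kctd12 did not overlap either, and such non-overlap was not counted over all transcripts. Nothing particular to Kcnj3 is read from 1 share in 18. The third transcript, ENSMUST00000112633 (1679 bases), overlapped at 6.58 to 11.9 CPM and 6.53 to 16.5 CPM. Transcript counts are model estimates from reads the transcripts share, so these splits are less certain than gene sums.

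**Figure D4:**
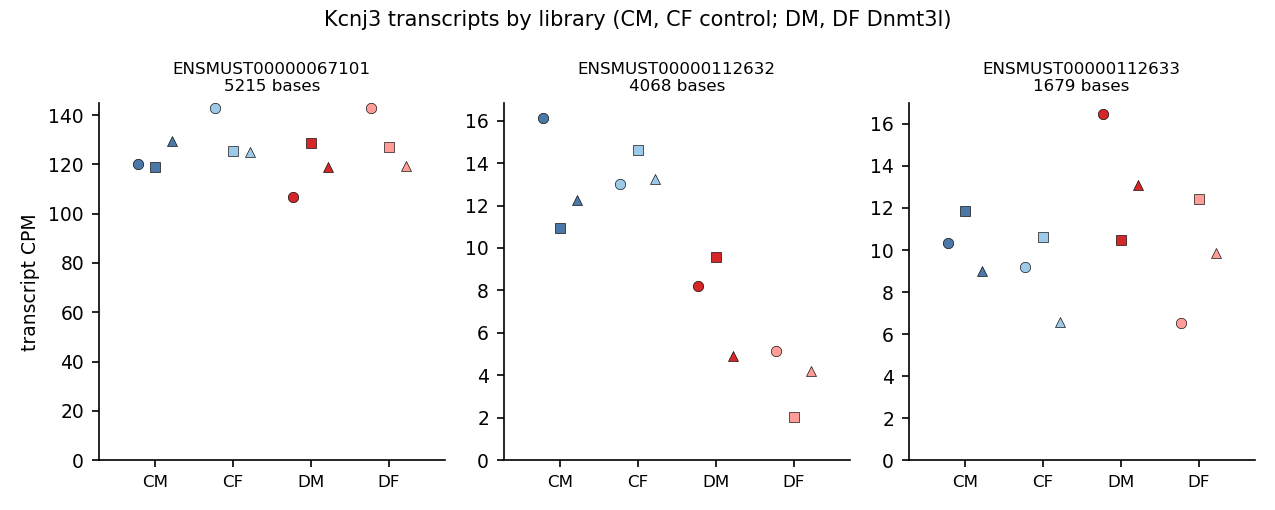
CPM of the 3 Kcnj3 transcripts (vertical axes from 0, one scale per panel) by group; circles, squares and triangles are replicates 1, 2 and 3. The 4068-base transcript lies between 2.02 and 9.59 CPM in Dnmt3l libraries and between 10.9 and 16.1 CPM in controls, while the other transcripts overlap.

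Kcnj6 counts were spread over 4 transcripts. ENSMUST00000099508 held 46.1%, ENSMUST00000095873 31.9%, ENSMUST00000165538 10.9% and ENSMUST00000232562 5.63% of the counts over all libraries. The 3627-base ENSMUST00000165538 was at 8.56 to 10.9 CPM in controls and 9.07 to 19.6 CPM in Dnmt3l, with 5 Dnmt3l libraries above all controls. Kctd16 was split between ENSMUST00000236889 (64.7%), ENSMUST00000091927 (29.6%) and ENSMUST00000096572 (5.66%), whose levels all overlapped between genotypes. The remaining transcripts over 5%, ENSMUST00000172789 of Gabbr1 (5.16%) and ENSMUST00000194860 of Kcnj9 (8.62%), also overlapped.

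Circular and non-coding RNAs of the members were measured in the same libraries. A circular RNA inside Kcnj6, from chr16:94832299-94833219, was scored in 12 of 12 libraries, with 381 to 543 in controls and 324 to 571 in Dnmt3l, on a scale in which 1 junction read was worth 5.25 to 6.34. Its range overlapped between genotypes. A Gabbr1 circular RNA at chr17:37054131-37054907 was also scored in 12 of 12 libraries, at 17 to 58 in controls and 11 to 146 in Dnmt3l, and a longer one from the same start to 37056979 in 8 of 12. The other 4 of 7, all from Gabbr2, were scored in 1 to 3 libraries each. The assembled Kcnj6 transcript TCONS_00219789 had 37.9 to 73.0 expected counts in controls and 26.0 to 66.9 in Dnmt3l, and TCONS_00219790 was above 0 in 7 of 12 libraries. The ranges of all RNAs named here overlapped between genotypes.

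Whether the Dnmt3l difference depended on sex was not used to choose the members, and was tested. In means, Gabbr2 was higher by 0.76 in males and by 0.38 in females on the log2 scale, a male minus female difference of 0.38 ± 0.13 (SE, edgeR quasi-likelihood test with Benjamini-Hochberg adjustment over all genes, adjusted p = 0.679, unadjusted p = 0.01003). Gabbr1 gave 0.49 in males and 0.23 in females, a difference of 0.26 ± 0.13 (edgeR adjusted p = 0.679), and Kcnj9 gave 0.46 and 0.14, a difference of 0.32 ± 0.15 (edgeR adjusted p = 0.679). For the other members the adjusted p ran from 0.7045 for Kctd12 to 0.983 for Kctd8, with male and female changes of -0.53 and -0.51 for Kctd8. No member passed, and neither did any other gene (0% of 15786 genes called, 1120 of them at an unadjusted p under 0.05, and 5 called by DESeq2). DF1, whose Gabbr1 and Gabbr2 values were the lowest of its genotype, is 1 of the 3 Dnmt3l females. Without it the smallest adjusted p among members was 0.2105 (edgeR), and 26 other genes passed, so the count of 0 over all genes rests in part on DF1.

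Between control females and control males no member differed by the same test. Log2 differences, female minus male, ran from -0.19 ± 0.15 for Kctd8 to 0.09 ± 0.10 for Kcnj9, each with an edgeR adjusted p of 1. Gabbr1 differed by -0.01 ± 0.09 and Gabbr2 by 0.05 ± 0.09. Over all genes 4, or 0.0253%, were called, and 245 had an unadjusted p under 0.05.

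The rest of the pathway was described from 9 lists holding 106 genes, of which 101 were tested in the genotype contrast. Over all lists 30 genes rose, 36 fell and 35 did not pass, a share of 29.7% rising and 35.6% falling beside 25.2% and 26.4% of all genes, with a median log2 change of 0.06 beside 0.02. The lists were set with earlier results of these data known. Without CM3, CF1 and CF2, the controls with liver transcripts, 13 pathway genes rose and 28 fell. In that setting 1950 of all 15502 genes tested were higher and 2457 lower, beside 3976 and 4160 of 15786 with all libraries. Adjusted p-values in the next paragraphs are from edgeR's quasi-likelihood test with Benjamini-Hochberg adjustment over all genes. The genes named there were mostly the called genes with the largest changes in this contrast, so these p-values add no independent support. The same 6 controls enter all of these values.

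G protein subunits carry the signal from the receptor. Of 16 tested, 12 fell, 1 rose and 3 did not pass, with a median of -0.39. The largest falls were Gng3 (-1.01 ± 0.17, edgeR adjusted p = 0.000669) and Gng11 (-0.99 ± 0.24, edgeR adjusted p = 0.004525), both γ subunits. Gng11 was scarce, with group means of 0.915 to 2.42 CPM, and its genotypes overlapped. The gene that rose was Gnai2 (0.25 ± 0.08, edgeR adjusted p = 0.0188), an inhibitory α subunit. RGS proteins and their partners speed the end of G protein signals. Of 13 genes 12 were tested, 8 fell, 2 rose and 2 did not pass (median -0.70). In log2 terms Rgs2 fell by 1.03 and Rgs4 by 1.02 (edgeR adjusted p = 0.000391 and 0.002042). Rgs4 was at 372 to 422 CPM in controls, at 399 CPM in DF1 and at 117 to 177 CPM in the remaining Dnmt3l libraries. Rgs11 rose by 0.36 and Gpr158, a receptor that binds RGS proteins, by 0.26 (edgeR adjusted p = 0.01193 and 0.004581). Calls for Gnai2, Rgs11 and Gpr158 were lost under at least 1 alternative.

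Adenylyl cyclases, only some of which the receptor's α subunits inhibit, went the other way. Of 8 tested, 7 rose and none fell (median 0.40), with Adcy6 at 0.52 ± 0.09 (edgeR adjusted p = 0.000551) and Adcy7 at 0.46 ± 0.13 (edgeR adjusted p = 0.01001). Adcy5 was at 0.23 and did not pass. Of the 9 calcium channel subunits of nerve terminals, 6 rose, 2 fell and 1 did not pass (median 0.39). The pore-forming genes Cacna1a, of P/Q-type channels, and Cacna1b, of N-type channels, rose by 0.74 ± 0.09 and 0.52 ± 0.08 (edgeR adjusted p = 0.000162 and 0.000394). Cacna1a was at 339 to 385 CPM in controls at 445 CPM in DF1 and at 551 to 674 CPM in the remaining Dnmt3l libraries. The genes that fell, Cacnb4 (-0.82 ± 0.19, edgeR adjusted p = 0.00331) and Cacnb1 (-0.55 ± 0.13, edgeR adjusted p = 0.004125), encode accessory β subunits.

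Among 8 proteins that bind the receptor or govern its trafficking, 3 rose, 4 fell and 1 did not pass (median -0.06). Pianp and App, known to bind the sushi domains of a Gabbr1 form, rose by 0.35 ± 0.07 and 0.35 ± 0.06 (edgeR adjusted p = 0.001692 and 0.000892). Nsf, an ATPase of membrane fusion, fell by 0.95 and Atf4, a transcription factor that binds the receptor, by 0.58 (edgeR adjusted p = 0.00028 and 0.001121). Other Kctd genes had 17 of 19 tested, with 8 fallen, none risen and 9 that did not pass (median -0.26). Kctd4 fell by 0.88 and Kctd13 by 0.61 (edgeR adjusted p = 0.000518 and 0.0013). Kctd4 was at 22.5 CPM in DF1, inside the control range of 21.9 to 28.4 CPM, whereas Kctd12 was below its controls in that library.

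Other inward rectifiers were set beside the GIRK genes, with 9 of 11 tested (Kcnj5 and Kcnj15 were not). The list also held the tandem-pore channel Kcnk2, at -0.05, which did not pass. Of these, 3 rose, none fell and 6 did not pass (median 0.20). Kcnj16 (0.72 ± 0.11, edgeR adjusted p = 0.000377) and Kcnj10 (0.53 ± 0.09, edgeR adjusted p = 0.000732) are known as partners in astrocyte potassium channels. Kcnj16 was at 22.4 to 26.0 CPM in controls, at 26.1 CPM in DF1 and at 39.9 to 47.9 CPM in the remaining Dnmt3l libraries, which also held the higher astrocyte marker sums. Of 15 other receptors that open GIRK channels, 6 rose, none fell and 9 did not pass (median 0.18), with Adra2a, an adrenergic receptor, at 0.43 ± 0.14 and Oprm1, the μ opioid receptor, at 0.40 ± 0.14 (edgeR adjusted p = 0.02286 and 0.03143). Both calls were lost under several alternatives.

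Genes that make and clear GABA were divided. Of 7 tested, 2 rose, 2 fell and 3 did not pass (median -0.05). The GABA-synthesizing enzymes Gad1 and Gad2 fell by 0.69 and 0.73 (edgeR adjusted p = 0.000383 and 0.000293), and Slc6a11, a transporter that takes GABA up, rose by 0.50 (edgeR adjusted p = 0.02203). Gad1 was at 240 to 270 CPM in controls, 215 CPM in DF1 and 133 to 164 CPM in the remaining Dnmt3l libraries. Inhibitory neuron markers summed to 739 to 832 CPM in controls and 600 to 773 CPM in Dnmt3l, with 4 of 10 risen and 5 fallen.

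**Figure D5:**
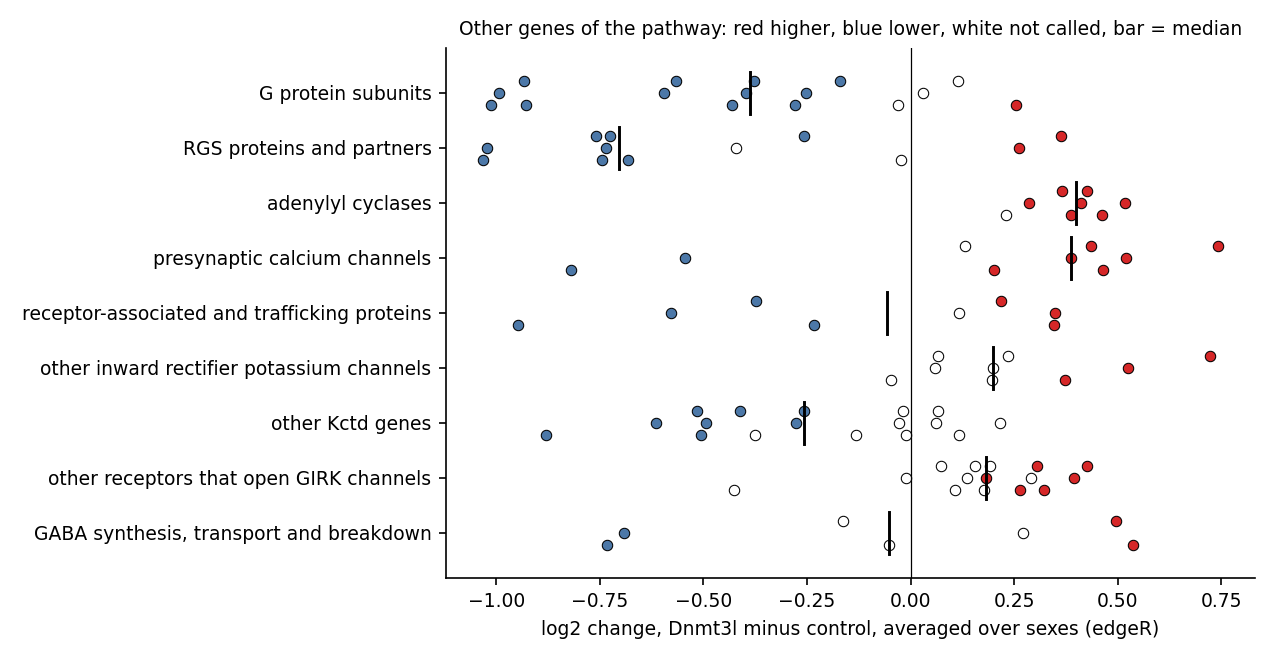
Log2 change from control to Dnmt3l, averaged over sexes (horizontal axis), of each tested gene in the 9 pathway lists; red points rose, blue points fell, white points did not pass an edgeR adjusted p of 0.05, and a bar marks each list's median. Medians lie at -0.39 for G protein subunits and -0.70 for RGS proteins and partners, and at 0.40 for adenylyl cyclases.

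The genes whose pattern over the 12 libraries lay closest to each receptor subunit were ranked by the root mean square difference of log2 CPM, each gene centred on its own mean, among 15785 genes. Nearest to Gabbr1 were Nptn (0.031), Aplp2 (0.038), Atp2a2 (0.040), Retreg2 (0.044) and Git2 (0.044). Nptn encodes a synaptic adhesion protein, Aplp2 a relative of App, and Atp2a2 a calcium pump of the endoplasmic reticulum. Nearest to Gabbr2 were Tmem132a (0.050), Os9 (0.055), Grin1 (0.056), Tspoap1 (0.063) and Zfp523 (0.063). Grin1, the obligatory subunit of NMDA receptors, had a log2 change of 0.53 beside 0.57 for Gabbr2, a likeness that this way of choosing builds in. The subunits were not each other's nearest neighbours: Gabbr2 ranked 800 for Gabbr1 and Gabbr1 ranked 281 for Gabbr2. The distance counts the size of a change as well as its shape, and Gabbr1 had a log2 change of 0.36. Kctd8 and Kctd12 ranked between 10878 and 11567 for either subunit. These distances are descriptions over 12 libraries that share the genotype difference.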

How the data were processed

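For mRNA the authors deposited expected counts and FPKM per Ensembl transcript, per the file headers. The submitters' processing notes name the build GRCm38 and, with no role, HTSeq 0.6.1, HISAT2 2.0.1, cutadapt 1.9.1, DESeq2 and bedtools 2.17.0. The counting program and its strand setting are not stated in the sources used here. For assembled non-coding transcripts the authors deposited the same units. For circular RNAs the authors deposited a score. Of the distinct scores under 2000 in a library, 97.8% to 100% equalled exactly a whole number of junction reads times a fitted step, cut down to a whole number.

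Expected counts of 119414 transcripts were summed by gene and rounded. The 1774 transcripts with no gene held 0.533% to 0.601% of counts and were left out. Genes with at least 0.5 FPKM in 3 libraries were fitted with edgeR 4.0.16 (TMM scaling, 4 group means, quasi-likelihood test, R 4.3.3), and the script was tested on simulated data. CPM used TMM-scaled totals. The contrasts were Dnmt3l minus control averaged over sexes, the male minus female Dnmt3l effect, and control female minus control male. Benjamini-Hochberg adjustment ran over all 15786 genes, and an adjusted p under 0.05 was called.

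The members, lists and rules were chosen with earlier results of these data known. The text names all members, of each list the called genes with the 2 largest rises and falls, the 5 genes most like each receptor subunit, transcripts with at least 5% of a member's counts, and other RNAs above 0 in at least 6 of 12 libraries. Adcy5 and Kcnk2 were added after their values were seen. A gene that this rule would name is not reported here.

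There were 22 alternatives: other scalings, DESeq2 1.42.0, limma 3.58.1 on log2(FPKM + 0.1) and log2(FPKM + 1), no filter, a replicate block, leaving out each library, and leaving out libraries with liver transcripts. Small RNA libraries were not used.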

Additional observations from a re-analysis of the deposited data

How the results depend on the processing

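Under the 22 alternatives no member's log2 difference changed sign and none was called in the sex contrasts. Over all genes the male minus female Dnmt3l effect gave 26 calls without DF1, 5 without DF1, CM3, CF1 and CF2, and 5 with DESeq2. The number of members called between genotypes was 5, and 4 to 7 under scaling, tool and filter changes, beside 51.5% of all genes in the first case, 41.9% with limma (4 members), 50.7% with library totals (7 members) and 34.8% with no filter (5 members). Leaving out one library gave 5 to 8 (8 without DF1, the lone case above 6, where 63.1% of all genes were called). Without CM3, CF1 and CF2 together it was 5, beside 28.4% of all genes, and without these and DF1, an alternative chosen after seeing the data, also 5, beside 55.0%. Gabbr1 ran from 0.27 to 0.41, Gabbr2 from 0.48 to 0.63, Kcnj9 from 0.21 to 0.34, Kctd8 from -0.61 to -0.38 and Kctd12 from -0.56 to -0.42. Kcnj3 ran from -0.18 to -0.04, Kcnj6 from 0.11 to 0.27 and Kctd16 from -0.20 to -0.06. Kcnj9 was not called by limma, and Kcnj6 was called under 4 of the 22 alternatives.

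The number of pathway genes that rose was 30, but 19 with limma on log2(FPKM + 0.1), 18 with log2(FPKM + 1) and 13 without the 3 libraries with liver transcripts, which also leave fewer samples. Over all genes the number higher was 3976, but 2329, 2345 and 1950 in these same cases. Leaving out one library gave 23 to 32. The fall count was 36, and 28 to 40 over all alternatives, beside 4160, and 2457 to 5178, of all genes. Of the pathway genes named, Gnai2, Rgs11, Gpr158, Adcy7, App, Oprm1, Adra2a and Slc6a11 lost their call under at least 1 alternative. The cause was not tested.

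Over all genes 8136 were called, 4407 without the 3 libraries with liver transcripts and 9923 without DF1. Of the calls 48.9% were higher, but 35.4% when scaled by library totals, 55.0% with upper-quartile scaling, and 35.2% and 35.5% with limma.

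Replicate numbers gave no sign of pairing: deviations of same-numbered libraries correlated at -0.330 to 0.088 over 18 pairs, 0 of them over 0.1. These are deviations from means of 3 libraries, so the check cannot show that no batch was shared. With a replicate block the members called stayed at 5, the pathway genes rising at 27 and falling at 35, and no member was called in a sex contrast. Depth limits Kctd8 most, with at most 211 counts in a library.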
